A study of Bos taurus with 8 samples.

Results

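The genes followed here belong to fibroblast growth factor (FGF) signaling in cattle. They were compared between stem-like cell lines grown from embryos (eSLCs) and cultured somatic cells (SCs). They are 10 in number, chosen by gene name: the ligands FGF2, FGF4, FGF7 and FGF10, the receptors FGFR1, FGFR2 and FGFR3, and the feedback genes SPRY1, SPRY2 and DUSP6. Earlier results of these data were known when these genes were chosen. Their 27 probes were found by matching the RefSeq accession of each probe to the cattle gene table, and all 10 were among the 12602 genes with a named probe and the 10957 genes tested. RNA from 8 samples of HanWoo cattle cells was hybridized, each sample to 1 single-dye Agilent bovine array. There were 2 arrays for each group: IVP-eSLCs from in vitro produced embryos (lines I2, passage 35, and I9, passage 30), NT-eSLCs from embryos made by somatic cell nuclear transfer with an ear skin donor cell (N2, passage 36, and N7, passage 30), PA-eSLCs from parthenogenetic embryos (P1, passage 31, and P4, passage 36), and SCs (passages 5 and 10). The eSLCs grew from blastocysts on inactivated murine STO feeder cells in medium with the MEK inhibitor PD184352, the FGF receptor inhibitor SU5402 and the GSK3 inhibitor CHIR99021. The SCs grew in DMEM with serum and without the inhibitors. Cell type, inhibitors, medium and feeder therefore changed together between eSLCs and SCs and cannot be told apart. Each eSLC array was 1 line and the SC arrays were 2 passages, and no label says that the latter were separate cultures, so the p-values measure only the spread between these samples.

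FGF ligands are secreted proteins that bind tyrosine kinase receptors (FGFRs) with the help of heparan sulfate. The activated receptors signal through adaptor proteins, RAS and the kinases RAF, MEK and ERK. ERK signaling induces its own inhibitors, among them the Sprouty proteins (SPRY1, SPRY2) and DUSP6, a phosphatase that removes the activating phosphates from ERK. In the mouse embryo FGF4 from the inner cell mass acts on FGFR2 in the trophectoderm, the outer layer that forms the placenta. FGF7 and FGF10 are typical products of mesenchymal cells and act on an epithelial isoform of FGFR2.

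Signals are given as background-subtracted intensities relative to the 75th percentile of each array, which is set to 1000. Every array could tell signals of 13.3 or more from background, and signals under this floor were raised to it before a log2 difference was taken. A gene was represented by its brightest probe and was called when limma gave an adjusted p under 0.05 (Benjamini-Hochberg, all 10957 genes) and the difference was at least 2-fold. The number of arrays limits the precision, as each group had 2. Of the 10 FGF genes, 5 were called lower in eSLCs than in SCs (FGF7, FGF10, FGFR1, SPRY1 and SPRY2), 1 was called higher (FGFR3) and 4 were not called (FGF2, FGF4, FGFR2 and DUSP6). Over all genes tested, 15.7% were called lower and 19.7% higher. The same 5 genes were lower on all 6 eSLC arrays than on both SC arrays and FGFR3 was higher, as were 23.6% and 34% of all genes tested. The median log2 difference was −1.16 over the 10 genes and 0.23 over all genes, and the latter was 0.12 after quantile normalization.

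**Figure D1:**
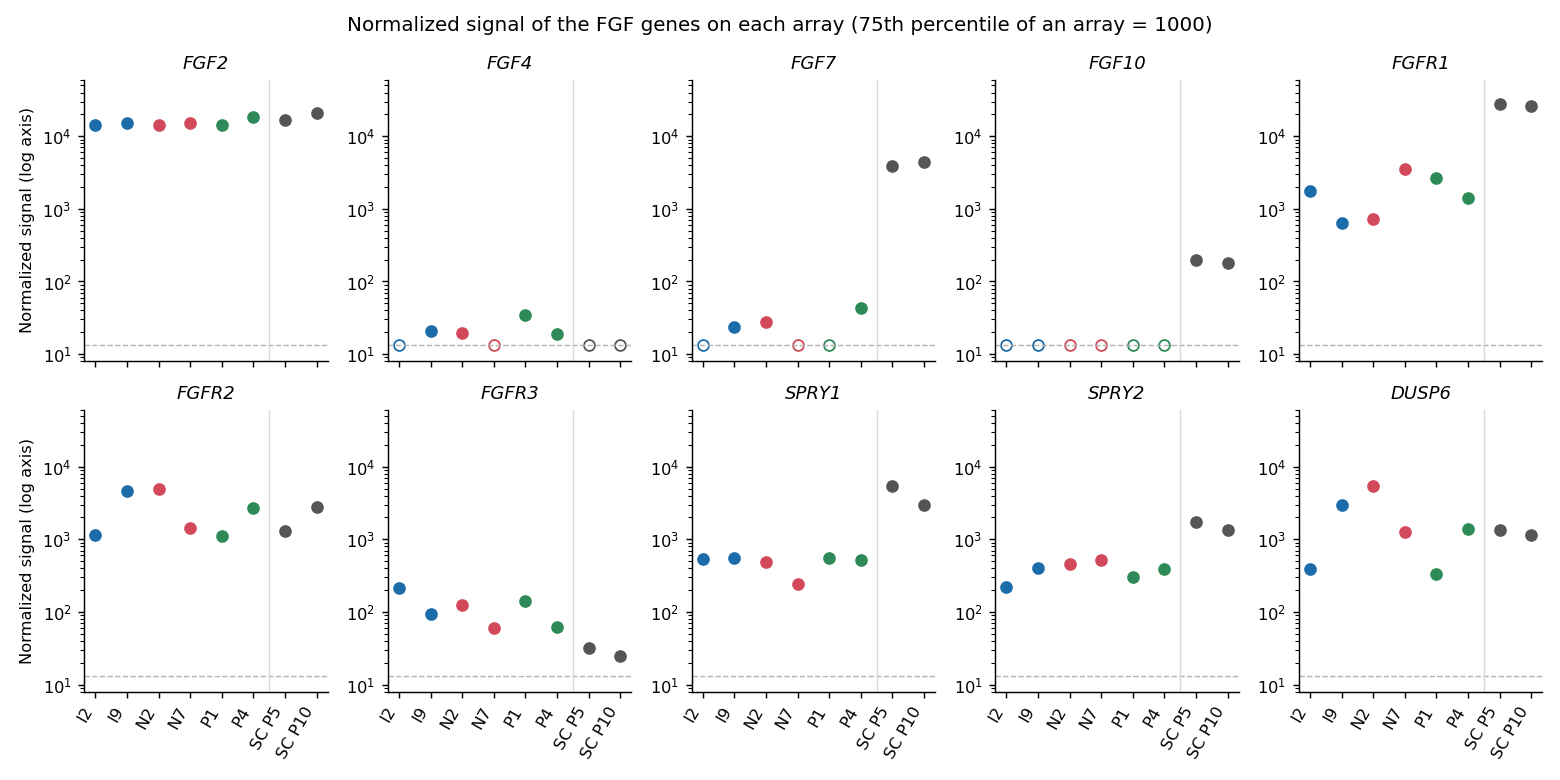
Normalized signal of the brightest probe of each gene on the 8 arrays, with a log axis. The dashed line is the floor of 13.3, open circles are signals below it and drawn on it, and colors separate IVP- (blue), NT- (red) and PA-eSLCs (green) from SCs (grey). FGF7, FGF10, FGFR1, SPRY1 and SPRY2 lie lower on all 6 eSLC arrays than on both SC arrays, and FGFR3 lies higher.

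The arrays were also described with cell type markers, which were chosen with earlier results of these data known. All 7 trophectoderm markers with a probe (CDX2, GATA3, GATA2, TFAP2C, KRT8, KRT18 and ELF5) were called higher in eSLCs, and their summed signal was 333842 to 865506 in eSLCs and 3267 to 4265 in SCs. Of 8 fibroblast markers, 7 were called lower in eSLCs, with a sum of 5369 to 10568 against 504581 to 604694 in SCs. The sum of 4 inner cell mass markers was 113 to 1053 in eSLCs and 485 to 582 in SCs. Of these, SOX2 was called lower in eSLCs, at 46.9 to 99.5 against 460 and 551 in SCs. POU5F1 was not called, at 899 in N7, 30.8 to 101 in the other lines and 16.3 and 26.0 in SCs. NANOG was not called, at 5.80 to 35.4 in eSLCs and 6.98 and 2.48 in SCs. It was well above background on 5 eSLC arrays and on 0 SC arrays. PRDM14 reached at most 21.7 on any eSLC array and was at 1.80 and 2.33 in SCs. The sum of 4 hypoblast markers was 2047 to 16048 in eSLCs and 7944 to 9055 in SCs. N7 had the highest sum, with 9035 for HNF4A, 2922 for GATA4 and 1424 for PDGFRA, which were at most 23.4, 180 and 276 on the other eSLC arrays. SOX17 was at 2667 in N7 and 1908 to 2949 in the other lines. PDGFRA was called lower in eSLCs as a whole, with 5586 and 5161 in SCs, and the other 3 were not called. The keratinocyte markers summed to 1468 to 3558 in eSLCs and 3076 to 6395 in SCs, and the endothelial markers to 25.0 to 238 and 78.9 to 99.7. In such bulk RNA, fewer cells of a type and less RNA per cell cannot be told apart.

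Among the ligands, FGF7 showed the widest gap. Its signal was 3939 in SC P5 and 4489 in SC P10. In the eSLC lines it was 3.17 in I2, 23.9 in I9, 27.4 in N2, 6.45 in N7, −0.27 in P1 and 43.3 in P4, and it was well above background in I9, N2 and P4 only. Every eSLC array was thus at a small fraction of either SC array. The log2 difference was −7.71 (SE 0.53, adjusted p = 0.000155 by limma), and the second probe of FGF7 gave −8.84. For these, I2, N7 and P1 were raised to the floor, and I9 too on the second probe. Both sizes and the SE are thus set in part by the floor.

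FGF10, which like FGF7 signals from mesenchyme to epithelium, was at 199 in SC P5 and 177 in SC P10. On the eSLC arrays its signal lay between −0.72 and 11.2 and was not well above background on any of the 6. It was at least 19.1-fold lower in eSLCs, a bound set against the lowest signal well above background on each eSLC array, with an adjusted p of 1.41e-05 by limma. For that fit all 6 eSLC signals were raised to the floor, so this p-value holds no measured spread between the lines. For the second probe the bound was 6.42-fold. The median difference of the 10 genes was the same, −1.16, with FGF10 at this bound.

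FGF2, a broadly expressed ligand used to culture many stem cells, gave 2 different pictures on its 5 probes. The brightest probe, which represents the gene in the counts, read 14361 in I2, 15366 in I9, 14131 in N2, 15425 in N7, 14376 in P1 and 18217 in P4. It read 16519 in SC P5 and 20836 in SC P10, so that the groups overlapped. Its log2 difference was −0.28 with a 95% interval of −0.72 to 0.15 (adjusted p = 0.236 by limma). The second brightest probe read 1265 in SC P5 and 1151 in SC P10 but 18.8, 17.4, 14.3, 34.4, 20.9 and 15.5 in I2, I9, N2, N7, P1 and P4. Its log2 difference was −5.97 (SE 0.35, adjusted p = 0.000135 when every probe was fitted for itself). The third probe was between 2.59 and 11.5 in eSLCs and at 301 and 449 in SCs. The fourth and the fifth were not well above background on any eSLC array and were at least 24.4-fold and 9.97-fold lower there. All 4 were called lower, where 16.5% of the 34414 probes tested were. With the mean of the 5 probes in place of the brightest, FGF2 itself was called lower, by a log2 difference of −3.62. The positions of the probes in the FGF2 transcript were not analysed here, so which of them reports FGF2 mRNA was not tested.

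**Figure D2:**
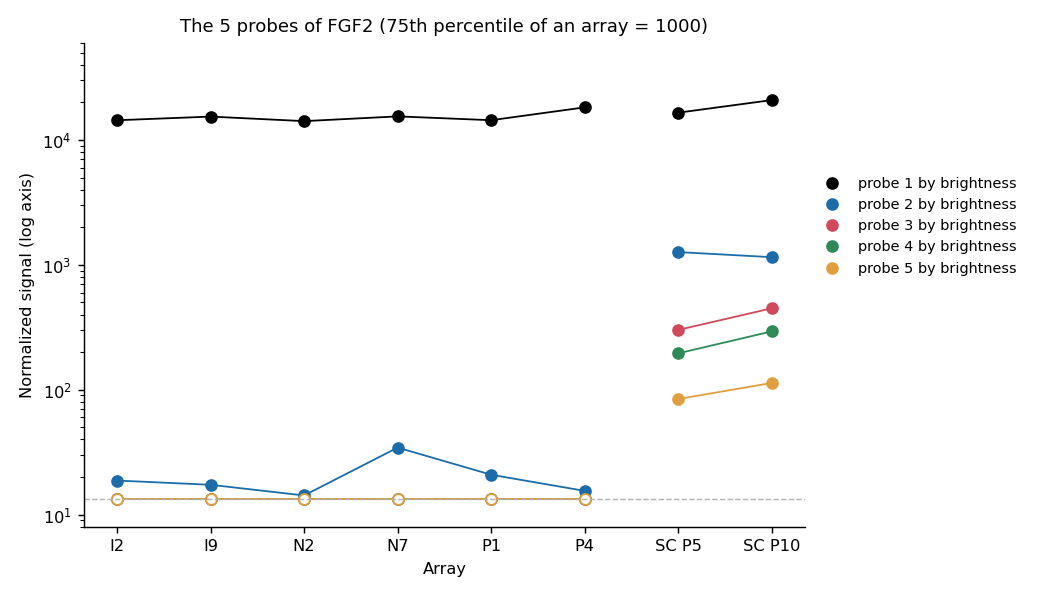
Normalized signal of the 5 FGF2 probes on each array, with a log axis. The dashed line is the floor of 13.3 and open circles are signals below it. Probe 1 is level over all 8 arrays, at 14131 to 20836, while probes 2 to 5 are at 84.3 to 1265 in SCs and at or near the floor in every eSLC line.

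FGF4, the ligand of the inner cell mass in the mouse, stayed near the floor in all cultures. Its signal was 12.7 in I2, 21.1 in I9, 19.7 in N2, 9.68 in N7, 34.8 in P1 and 18.9 in P4. The SC arrays read 7.24 and 10.7, and overlapped with the lines. The log2 difference of 0.52 (95% interval −0.26 to 1.31) was not called (adjusted p = 0.226 by limma), and both probes were alike in this.

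The receptors moved in different directions. FGFR1, the main receptor of mesenchymal cells, was at 27406 in SC P5 and 26420 in SC P10. It was 1768 in I2, 638 in I9, 716 in N2, 3580 in N7, 2641 in P1 and 1422 in P4. Every eSLC line was below both SC arrays, and the lines themselves spanned a 5.61-fold range. The log2 difference was −4.18 (SE 0.70, adjusted p = 0.00461 by limma), and its second, dimmer probe was called as well at −3.15. The difference was −4.11 within slide 1 and −4.25 within slide 2. The call rested on having both SC arrays: it was lost without SC P5 (−4.15, adjusted p = 0.0675), without SC P10 (−4.20, adjusted p = 0.0616) and with both counted as 1 sample (adjusted p = 0.0633).

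FGFR3, another receptor of the family, was called higher in eSLCs. It has a single probe, with a signal of 215 in I2, 93.0 in I9, 125 in N2, 59.8 in N7, 139 in P1 and 62.0 in P4, and of 31.3 in SC P5 and 24.6 in SC P10. The groups did not overlap, and N7 and P4 came closest to the SC arrays. The log2 difference was 1.91 (SE 0.50, adjusted p = 0.0229 by limma). The call was lost without N2 (1.73, adjusted p = 0.0521), without SC P5 (2.09, adjusted p = 0.127), without SC P10 (1.74, adjusted p = 0.172), with both SC arrays as 1 sample (adjusted p = 0.146), without a filter on dim genes (adjusted p = 0.0517) and with a normexp background correction (1.11, adjusted p = 0.0696).

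FGFR2, the receptor that takes up FGF4 in mouse trophectoderm, did not differ between the groups beyond the spread of the lines. It was at 1141 in I2, 4549 in I9, 4937 in N2, 1416 in N7, 1101 in P1 and 2664 in P4. The SC arrays, at 1294 and 2822, fell inside this range. The log2 difference was 0.19 with a 95% interval of −1.68 to 2.06 (adjusted p = 0.856 by limma), which leaves room for changes of over 3-fold in either direction. It was 0.59 within slide 1 and −0.21 within slide 2. The 6 probes of FGFR2 gave log2 differences between −0.57 and 0.82, and none was called.

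Of the feedback genes, both Sprouty genes were lower in eSLCs. SPRY1 was at 5437 in SC P5 and 3005 in SC P10, and at 539 in I2, 559 in I9, 482 in N2, 241 in N7, 560 in P1 and 520 in P4. Except in N7, the eSLC lines were within a narrow band. The log2 difference was −3.12 (SE 0.34, adjusted p = 0.000883 by limma), with −3.70 within slide 1 and −2.53 within slide 2. SPRY2 was at 1711 in SC P5 and 1342 in SC P10, and at 221 in I2, 407 in I9, 460 in N2, 520 in N7, 303 in P1 and 395 in P4. Its groups did not overlap either, with a log2 difference of −2.03 (SE 0.28, adjusted p = 0.00219 by limma). The second probes of SPRY1 and SPRY2, both dimmer, were also called lower, at −2.70 and −1.26. Their eSLC signals were below the floor except for SPRY1 in P1, so these sizes are set largely by the floor.

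DUSP6 differed more among the eSLC lines than any other of the 10 genes with all signals above the floor. Its signal was 388 in I2, 3004 in I9, 5353 in N2, 1246 in N7, 332 in P1 and 1380 in P4, a 16.1-fold range. The SC arrays, at 1333 and 1161, lay in the middle of it. The log2 difference was −0.01 with a 95% interval of −2.45 to 2.43 (adjusted p = 0.997 by limma), so that neither a rise nor a fall of up to 5-fold could be told from no change. The other 2 probes of DUSP6 gave −0.24 and 0.02.

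The same genes were then compared by embryo origin. The 3 comparisons share the SC arrays, so their likeness is not separate evidence. FGF7, FGF10, FGFR1, SPRY1 and SPRY2 were called lower in IVP-, NT- and PA-eSLCs alike, where 14.6%, 13.9% and 14.9% of all genes were. FGFR3 was called higher in IVP-eSLCs (log2 difference 2.35, SE 0.61, adjusted p = 0.0277 by limma). It was not called in NT-eSLCs (1.64, adjusted p = 0.0851) or in PA-eSLCs (1.74, adjusted p = 0.0632). Over all genes, 17.7% were called higher in IVP-eSLCs, 15.8% in NT-eSLCs and 20.3% in PA-eSLCs. These FGFR3 calls turned on the settings. That in IVP-eSLCs was lost under 11 of 24 alternatives, namely without I2, SC P5 or SC P10, without I9 and N2 together (adjusted p = 0.0502 by limma), with the SC arrays as 1 sample, with slide as a block, without a filter, with normexp, with the processed signal, and by the methods' t-test with and without adjustment. In PA-eSLCs FGFR3 was called higher with a filter on all 8 arrays (adjusted p = 0.0478 by limma), with a fit of only the groups compared (adjusted p = 0.0366) and in the authors' normalized table (2.72, adjusted p = 0.00964). In that table it was also called in NT-eSLCs (2.44, adjusted p = 0.0190 by limma). There its values were 0.39% apart between P1 and P4 and 1.2% between N2 and N7. The scanner signals of these pairs were 2.24-fold and 2.10-fold apart. The p-values from that table therefore do not measure the spread between lines. The FGFR1 call was lost in every origin without SC P5, without SC P10 or with the SC arrays as 1 sample, in IVP-eSLCs also without I9, in NT-eSLCs without N2, and in PA-eSLCs without P1 or P4. In NT-eSLCs the SPRY2 call was lost without N2, SC P5 or SC P10 too, which left 3 calls there, and with the SC arrays as 1 sample.

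**Figure D3:**
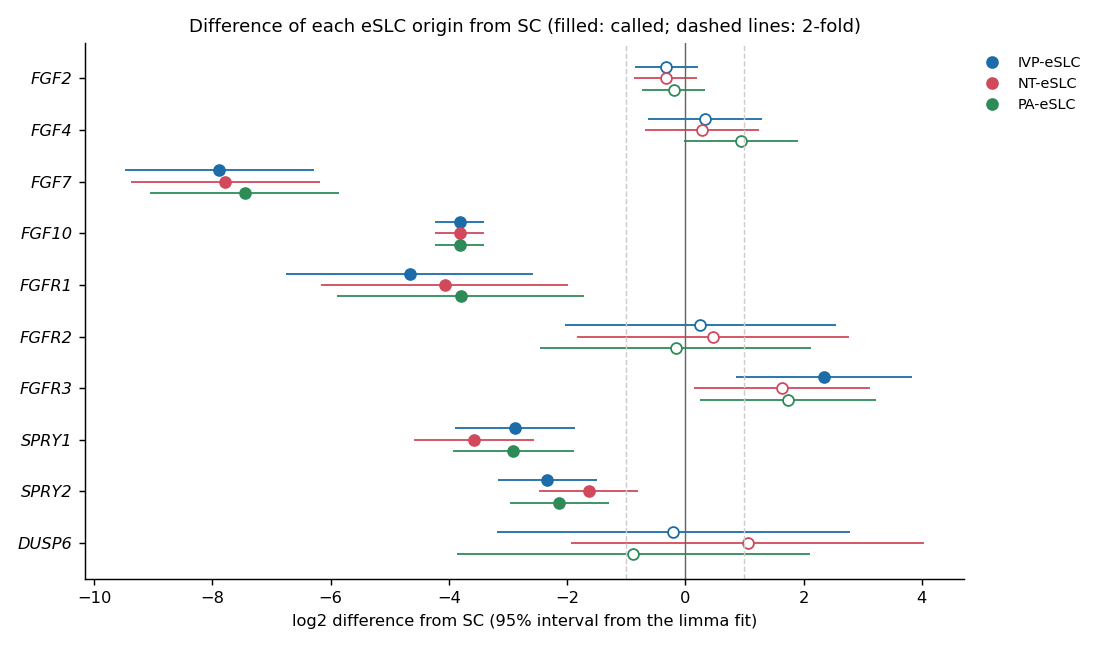
Log2 difference from SCs of IVP- (blue), NT- (red) and PA-eSLCs (green), with 95% intervals of the limma fit. Filled circles are called and the dashed lines mark 2-fold. The FGF10 values rest on eSLC signals raised to the floor and are no measured size. The FGF7 values rest in part on such signals in each origin. The intervals of FGFR2 and DUSP6 span 0 widely in each origin.

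Between origins no FGF gene was called by limma, and none of the 10 had an unadjusted p under 0.05 for NT- against IVP-eSLCs or PA- against IVP-eSLCs. The methods' t-test with the same adjustment also called 0 of the 10. Of the 10, the authors' normalized table gave a call for DUSP6 alone, which was higher in NT- than in IVP-eSLCs (3.53, adjusted p = 0.0161 by limma). In that table DUSP6 was 5.6% apart between I2 and I9 and 3.4% between N2 and N7. The scanner signals of these pairs were 7.75-fold and 4.30-fold apart, so this p-value does not measure the spread between lines. Over all genes, 0% were called in both comparisons, and 306 and 569 genes had an unadjusted p under 0.05. DUSP6 had the largest point difference between NT- and IVP-eSLCs, 1.26 with a 95% interval of −1.73 to 4.25, and FGFR1 between PA- and IVP-eSLCs, 0.87 with an interval of −1.22 to 2.96. I2, I9 and N7 shared slide 1 with SC P5, and N2, P1 and P4 shared slide 2 with SC P10, so that slide and origin cannot be told apart between PA- and IVP-eSLCs.

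The spread of FGFR2 and DUSP6 was between lines of an origin rather than between origins. On the brightest probes the 6 lines fell in the same order for both genes, from N2, I9 and P4 down to N7, I2 and P1. On several dimmer probes the order of the lines differed. Across the 6 lines Pearson's r of the log2 signals was 0.94, a description of 6 arrays. I9 and N2 were the highest lines on 5 of the 6 FGFR2 probes and on all 3 DUSP6 probes. FGFR1 ran the other way on its brightest probe, with I9 and N2 lowest and r = −0.90 with FGFR2. On its second probe P4 was lowest, at 16.6, beside 17.8 in I9 and 18.4 in N2. With 1 array per line, neighbors in the order of FGFR2 and DUSP6 have no spread of their own. For FGFR2, N2 was at 1.09 times I9 and I2 at 1.04 times P1. I9 was at passage 30 on slide 1, and N2 was at passage 36 on slide 2. Whether passage or slide had a part in this order was not tested.

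**Figure D4:**
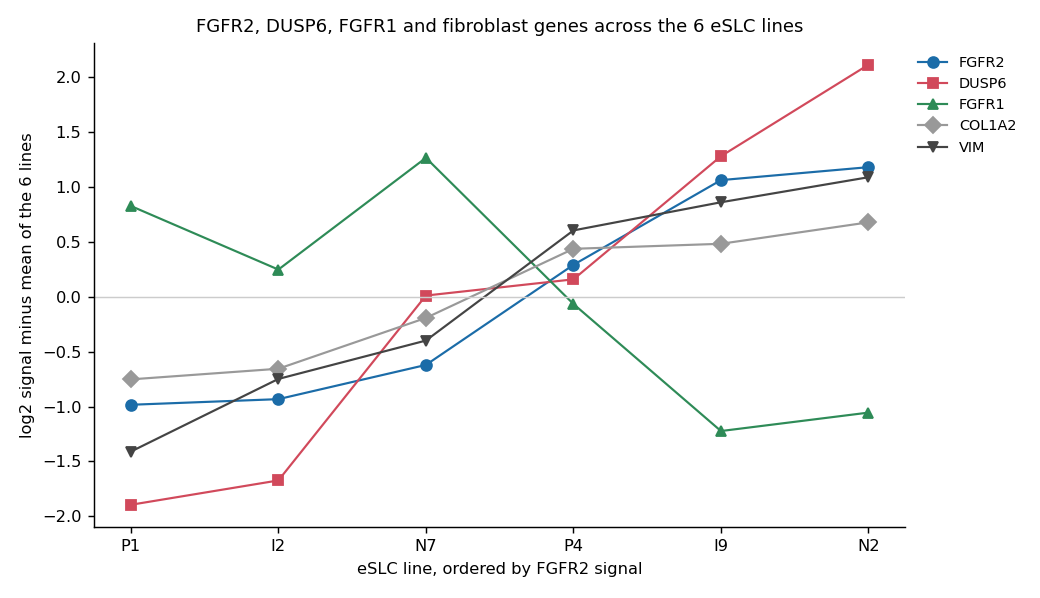
Log2 signal of the brightest probes of FGFR2, DUSP6, FGFR1, COL1A2 and VIM in each eSLC line, minus the mean of the 6 lines. Lines are ordered by FGFR2. COL1A2 and VIM were picked from the fibroblast markers, and others that do not follow FGFR2 are not drawn. DUSP6, COL1A2 and VIM climb with FGFR2 from P1 to N2, and FGFR1 is lowest in I9 and N2.

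Other genes and whole arrays moved with this order. I9 and N2 were the most alike pair of arrays over all genes tested, with r = 0.994, beside 0.993 for the 2 SC arrays. The other pairs of eSLC lines had r from 0.947 to 0.987. VIM, which encodes the intermediate filament of mesenchymal cells, was at 3768 in I9, 4414 in N2 and 3155 in P4 and at 1235 in I2, 1574 in N7 and 781 in P1. Its r with FGFR2 was 0.96 and with DUSP6 0.94. For the collagen gene COL1A2 these values were 0.96 and 0.95, and for COL1A1 0.90 and 0.75. The fibroblast markers THY1 and COL3A1 did not move this way, with r = 0.22 and r = −0.53 against FGFR2. For DCN, LUM and PDGFRB no r was computed, and their signals did not follow the FGFR2 order. PDGFRB was at 30.8 in P1, 24.3 in I2, 14.4 in N2, 12.3 in I9, 9.55 in P4 and 1.17 in N7. LUM was highest in N7, at 99.1. DCN was at 1144 in I2 and 1252 in I9 but at 893 in N2 and 840 in P1. On the SC arrays VIM was at 174520 and 214706 and COL1A2 at 140478 and 214085, far above any eSLC line. The part of these markers in the FGFR2 and DUSP6 values was not tested.

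For each gene the tested gene with the most similar log2 profile was looked up. Over the 6 eSLC lines it was ANKRD22 for FGFR2 (r = 0.999) and PARP9 for DUSP6 (r = 0.999). PARP9 was at 16.2 in I2, 202 in I9, 408 in N2, 66.6 in N7, 13.0 in P1 and 89.2 in P4. It was TMOD1 for FGFR1 (r = 0.993), WIPF2 for FGFR3 (r = 0.997), AFMID for SPRY1 (r = 0.998), TMEM214 for SPRY2 (r = 0.991), KRT80 for FGF4 (r = 0.991) and SEC23B for the brightest probe of FGF2 (r = 0.961). Over all 8 arrays MEIS1 was closest to FGF7 (r = 0.999), BBS2 to FGFR1 (r = 0.994), CD34 to FGFR2 (r = 0.958) and XAF1 to DUSP6 (r = 0.978). Each is the highest of 10704 values over the lines or of 10947 over all arrays, and is given as a description. Several rest on signals near or below the floor. ANKRD22 was at 7.17 in I2 and −0.066 in P1, and TMOD1 at 11.3 in I9 and 8.10 in N2. WIPF2 was at 16.7 to 25.2 in eSLCs, and CD34 reached at most 27.8 on any array. FGF4 itself was near the floor.

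The rest of the pathway was described from a list of 64 other genes, of which 42 had a named probe and 34 were tested. Of these, 3 were called higher and 9 lower, and 22 were not called, with a median log2 difference of −0.28. These counts stand beside the 19.7% and 15.7% of all genes given above, and the list as a whole was not tested.

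Other genes of the FGF family went both ways. Of 6 tested, FGF13 and FGF12 were called higher, and FGF18 and FGF5 lower. FGF13 and FGF12 belong to the intracellular FGFs, which are not secreted and bind sodium channels. Thus no secreted ligand among the 6 was called higher. FGF13 was between 419 and 1264 in eSLCs and at 15.7 and 25.3 in SCs, a log2 difference of 5.24 (SE 0.43). FGF12 was 21.7 to 40.7 in eSLCs and not well above background in SCs, at least 3.82-fold higher in eSLCs. FGF18, a secreted ligand known from bone and cartilage, was at 1578 and 1355 in SCs and between 8.86 and 73.8 in eSLCs (−6.00, SE 0.66). FGF5, known for its control of hair growth, was at 45.4 and 73.6 in SCs and not well above background in any eSLC line, at least 5.90-fold lower. FGF1 and FGF11 were not called. FGF1 was at 338 in N2, 185 in I9 and 74.9 in P4. It was at 6.70 in I2, 8.70 in N7 and 6.76 in P1, and at 6.17 and 1.14 in SCs.

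Neither FGFR4 nor the carrier FGFBP1, the tested genes of the receptor and carrier group, was called. FGFR4 was at 853 in N7, between 32.4 and 74.8 in the other eSLC lines and at 12.2 and 5.47 in SCs. The co-receptor KLB was not tested, as it was well above background in no group as a whole, but it was at 1386 in N7 and at most 2.15 elsewhere. HNF4A was high in the same line.

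Of 12 transducers tested, GAB1, an adaptor of receptor tyrosine kinases, was called higher and 11 were not called. Their median log2 difference was 0.16. GAB1 was between 2143 and 3281 in eSLCs and at 1208 and 1356 in SCs (1.06, SE 0.21). The kinase genes MAP2K1 and MAP2K2, which encode the targets of PD184352, differed by 0.38 and 0.35.

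Of 5 other feedback genes, IL17RD, a membrane inhibitor of FGF receptors also called SEF, was called lower (−1.27, SE 0.24), with signals of 7.53 to 23.8 in eSLCs and 34.3 and 37.5 in SCs. SPRY4, SPRED1, DUSP4 and RASA1 were not called. SPRY4 was below the floor on all arrays.

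Of 9 genes known to respond to ERK, most of them transcription factor genes, 6 were called lower and none higher. Over all genes tested, 15.7% were called lower. The median log2 difference of the 9 was −2.03. ETV1 and ETV5, ETS factors induced by FGF in many tissues, were among the 6 called lower. ETV1 was at 5320 and 5477 in SCs and between 6.63 and 24.1 in eSLCs (−8.46, SE 0.26). ETV5 was at 384 and 537 in SCs and at most 22.3 in eSLCs, where it was well above background in N7 only (−4.97, SE 0.25). In most eSLC lines ETV1 and ETV5 were below the floor and raised to it, which in part sets both sizes. FOSL1, of the AP-1 complex, was at 1114 and 1559 in SCs and 45.6 to 288 in eSLCs (−3.12, SE 0.81). JUNB, IER3 and MYC were the other 3 called lower. The immediate early genes EGR1 and FOS were not called. Their signals in SC P5 were 1119 and 1770, and those in SC P10 were 499 and 403. In eSLCs EGR1 was at 222 to 427 and FOS at 316 to 749. IER2 was not called either.

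**Figure D5:**
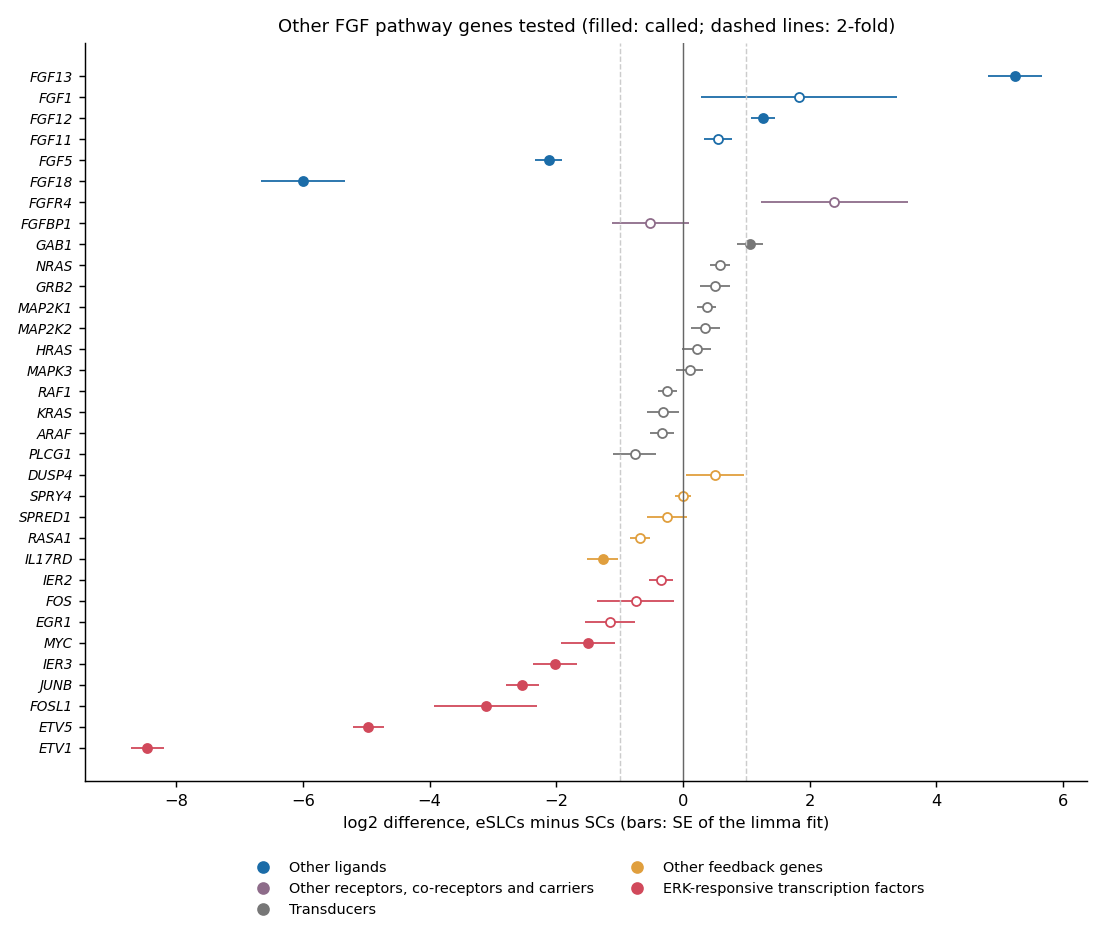
Log2 difference of eSLCs from SCs for 33 of the 34 other pathway genes tested, with the SE of the limma fit, ordered by role. Filled circles are called and dashed lines mark 2-fold. Transducers lie near 0, at −0.76 to 1.06, and the ERK-responsive genes (in the legend, transcription factors) lie at −8.46 to −0.35.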

How the data were processed

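RNA of 6 eSLC lines and of SCs at 2 passages was measured on 8 arrays. The authors scanned them and extracted spot signals with Feature Extraction (version 11.5.1.1 per the file headers), and deposited linear signal intensities per spot and a table of their own normalized intensities (by GeneSpring GX, per the methods). In 6 of 8 files the software's processed signal did not track the remaining columns (Spearman 0.161 to 0.216 with the background-subtracted signal, 0.971 and 0.973 in N2 and I2). The background-subtracted signal was therefore used, although the processed signal is the usual choice. Control spots and 0 to 5 outlier spots per array were left out, no spot was saturated, and 71.2% to 76.7% of spots were well above background. On each array the 75th percentile exceeded the dimmest signal passing that flag by 75.2 to 136 times. Of 43637 probes, 26731 were named through RefSeq accessions with a table of the ARS-UCD2.0 assembly. As the array design used another build, no coordinates are given.

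Spots of a probe were averaged, scaled, floored at 13.3 and taken to log2. Genes passing the background flag on both arrays of any group were tested with limma 3.58.1 in R 4.3.3 (lmFit and eBayes, 1 mean per group, all 8 arrays). The step was tested on simulated data. Figures were drawn with matplotlib 3.10.9. The 10 genes, the pathway list and the markers were chosen with earlier results of these data known. Named genes are these 10, and per pathway role up to 3 called genes with the largest rise and 3 with the largest fall. Values of other listed genes (FGF1, FGFR4, KLB, EGR1, FOS, MAP2K1, MAP2K2) are given after their values were seen. The counts hold 1 listed gene that is not reported here by itself. Alternatives were scaling, background, signal column, filter, probe choice, test, slide and leaving out arrays.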

Additional observations from a re-analysis of the deposited data

Results flagged for a closer look

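Within the 6 eSLC lines, 9 of the 10 FGF genes could be tested for a single array far from the others, with the gap to the nearest array divided by the whole range of log2 signals (critical value 0.625). SPRY1 in N7, at 241 against 482 to 560 in the other lines, had a ratio of 0.82. The brightest FGF2 probe in P4, at 18217 against 14131 to 15425, had a ratio of 0.65. Chance alone flags about 1 in 20 such groups.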

How the results depend on the processing

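The calls of FGF7, FGF10, SPRY1 and SPRY2 in eSLCs against SCs were kept under every alternative except the processed signal of the scanner software. A filter on all 8 arrays removed FGF7 and FGF10 from the test. Those of FGFR1 and FGFR3 were lost as given above, and that of FGFR3 also with the processed signal. With the processed signal 1 FGF gene was called in eSLCs against SCs, 0 in IVP-, NT- or PA-eSLCs, and 1 pathway gene. Over all genes, the 2155 higher and 1722 lower calls in eSLCs became 313 and 188 with this signal. It turned FGF2 (0.42), FGF4 (−3.58), FGF10 (1.17), SPRY1 (0.50) and DUSP6 (0.074) in eSLCs, FGF10 (0.18) and SPRY1 (1.48) in IVP-eSLCs, FGF10 (3.22) and SPRY1 (1.29) in NT-eSLCs and FGF10 (0.12) in PA-eSLCs, and between PA- and IVP-eSLCs FGFR1 (−1.10), FGFR2 (2.32) and DUSP6 (2.13). Over all genes the methods' adjusted t-test called 433, 149 and 934 higher in IVP-, NT- and PA-eSLCs, where limma called 1936, 1732 and 2226. It called 428, 148 and 724 lower, where limma called 1604, 1528 and 1634. Of the FGF genes this t-test called 2, 1 and 1 in IVP-, NT- and PA-eSLCs. A filter on all 8 arrays left 3 in NT-eSLCs and 7 pathway genes, as did the SC arrays as 1 sample. The authors' normalized table gave 1 call between NT- and IVP-eSLCs, that of DUSP6 (3.53, adjusted p = 0.0161 by limma), limited as given above. FGFR1, not called, was −0.30 there, and between PA- and IVP-eSLCs FGFR1 at −0.75, FGFR2 at 2.67 and DUSP6 at 2.48. FGFR2 between NT- and IVP-eSLCs was −0.0039 with the mean of its probes and −0.52 with slide as a block. With normexp DUSP6 in eSLCs was 0.025.

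Leaving out 1 array at a time, 4 to 6 FGF genes were called in eSLCs, 4 to 6 in IVP-, 3 to 5 in NT- and 4 to 5 in PA-eSLCs, 0 to 0 between origins, and 7 to 13 pathway genes, the lowest without SC P5. Without SC P5 or SC P10, calls over all genes in eSLCs against SCs became fewer too, in both directions. FGFR2 ranged from −0.37 to 0.75 and DUSP6 from −0.50 to 0.48 in eSLCs. Between NT- and IVP-eSLCs FGFR1 ranged from −0.57 to 1.75, FGFR2 from −0.78 to 1.21 and DUSP6 from −0.22 to 2.74. Between PA- and IVP-eSLCs FGFR2 ranged from −1.41 to 0.59 and DUSP6 from −2.15 to 0.81. Alternatives chosen after seeing the data left out I9 and N2, took the second brightest probe, or ran normexp on the median signal. Without I9 and N2, FGFR2 was −0.44 in eSLCs, and between PA- and IVP-eSLCs FGFR2 was 0.59 and DUSP6 0.81. FGF2 was called lower with its second brightest probe. The causes of these changes were not tested. Normexp on the mean signal was not run, as its column was not among those used here. No paired analysis was possible because the labels number no replicates, and numbers given in accession order pair no samples. Signals near the floor (FGF4, FGF10, IL17RD, FGF12, and in eSLCs FGF7, ETV1 and ETV5) have no measured order.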

Other observations

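In the authors' normalized table, the brightest probes of FGFR1, FGFR2, FGFR3 and DUSP6 had values at most 5.64% apart between both arrays of every group, while the scanner signals of the eSLC pairs were 1.86-fold to 7.75-fold apart. For DUSP6 the table gives 1053 for I2 and 1113 for I9, which are 5.64% apart, while the scanner signals differed 7.75-fold. For FGFR1 its values for N2 and N7 were 0.703% apart and the scanner signals 5.00-fold. FGFR2 columns of a group were at most 2.35% apart, FGFR3 columns 5.13% and FGFR1 columns 4.65%. For SPRY2 this held in some groups, with 0.791% between I2 and I9 and 1.39% between the SC arrays against 1.84-fold and 1.28-fold in the scanner signals, but 74.5% between N2 and N7. Over all 43637 probes, the SC P5 and SC P10 columns were within 2% of each other for 10022. The methods name GeneSpring GX for the normalization, and its settings are not given in the sources used here.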
